A study of Mus musculus with 12 samples.

Results

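Transcripts of 8 genes that control the primitive streak and the mesoderm were measured in mouse embryonic stem (ES) cells that lack Dicer, the nuclease that makes microRNAs. The members were T, Mixl1, Gsc, Mesp1, Evx1, Kdr, Fgf8 and Foxf1a, and every probe that carried one of these names was taken. This gave 11 of the 41174 probes on the array. Of these, 8 were among the 28818 probes tested, which were present on all 12 arrays and, in the channel of at least 1 RNA, flagged as well above background on both arrays of a dye-swapped pair. The probes of Mixl1 and Foxf1a and the second probe of Kdr did not reach that level. Fgf8 probe 2 reached it through the wild-type RNA alone.

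Per the labels, the RNAs came from wild-type ES cells, from the Dicer-null cultures 27G5 and 27H10, and from each of these 2 cultures made to overexpress Dnmt1 or Dnmt3a and Dnmt3b together (written Dnmt3a3b). Dnmt1 copies DNA methylation after replication, and Dnmt3a and Dnmt3b set it de novo. All cells grew on gelatin with leukemia inhibitory factor, which keeps ES cells undifferentiated, and the labels name no feeder cells, drug or inducer. The deleted stretch of Dicer1 and the vector for the methyltransferases are not given in the labels, nor whether an RNA was extracted once for all the arrays that carry its name. Each pair of RNAs was hybridised on 2 arrays with the dyes exchanged, and the 2 arrays were averaged into 1 ratio. Each comparison therefore had 1 ratio per culture, called clones 27G5 and 27H10 here, and values below are mean log2 ratios ± SD over clones (n = 2). Adjusted p values are from limma with Benjamini-Hochberg adjustment over all 28818 tested probes, and a probe was called when that p was under 0.05.

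In the embryo, the primitive streak is where epiblast cells leave the epithelium and become mesoderm or definitive endoderm. Wnt3 and Nodal induce it, and Lefty and Dkk1 proteins restrain these signals. T (Brachyury) and Mixl1 are early streak transcription factors, and T is a direct target of Wnt signalling. Fgf8 is a streak ligand needed for cells to move away from it. Evx1 is a homeobox factor of the posterior streak, Gsc a homeobox factor of the anterior streak and organizer, and Mesp1 a factor of the earliest cardiac mesoderm. Kdr encodes the VEGF receptor of mesoderm that gives rise to blood and endothelium, and Foxf1a (RefSeq symbol Foxf1) is a forkhead factor of posterior and lateral mesoderm. Undifferentiated ES cell cultures carry low and uneven levels of several of these transcripts.

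The array quality was even. Array medians ran from 112 to 135 in green and from 234 to 334 in red. The green channels had 61.6% to 68.3% of probes well above background, the red channels 64.1% to 68.6%. One Dicer1 probe stood at -4.07 ± 0.08 in Dicer-null over wild-type cells (adjusted p = 3.05e-05, limma), and the other stood at -0.53 ± 0.04 (adjusted p = 0.00386, limma). Against the Dicer-null parent, the first stood at -0.04 ± 0.03 in the Dnmt1 line and -0.07 ± 0.01 in the Dnmt3a3b line, neither called. The other was called lower there, at -0.63 ± 0.09 (adjusted p = 0.00625, limma) and -0.77 ± 0.08 (adjusted p = 0.0043, limma). No tested methyltransferase probe was called higher in the line named for it. Dnmt1 stood at 0.27 ± 0.23 in the Dnmt1 line (adjusted p = 0.109, limma), and Dnmt3b fell in the Dnmt3a3b line (-1.04 ± 0.59, adjusted p = 0.0306, limma). The tested Dnmt3a probes there stood at -0.72, -1.03 and 0.20, none called. Whether these probes match the introduced transcripts was not tested, and the lines are called by their labels. The arrays of the Dnmt lines in clone 27G5 lay on 1 slide and those in clone 27H10 on another, so slide and clone cannot be told apart there.

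Promoter sequence was available in the RefSeq table (GRCm38.p6) for 5 of the 8 genes. The 250 bases upstream of the annotated start are shown for the 4 of them that were called, because the methyltransferases of this study act on CpG dinucleotides. They run 5′ to 3′ on the gene's strand, with CpGs in capitals.
Evx1: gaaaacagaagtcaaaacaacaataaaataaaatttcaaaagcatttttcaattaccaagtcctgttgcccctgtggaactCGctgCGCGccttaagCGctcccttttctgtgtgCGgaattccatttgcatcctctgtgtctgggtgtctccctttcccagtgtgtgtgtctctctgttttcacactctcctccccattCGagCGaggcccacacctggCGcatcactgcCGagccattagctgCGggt
Kdr: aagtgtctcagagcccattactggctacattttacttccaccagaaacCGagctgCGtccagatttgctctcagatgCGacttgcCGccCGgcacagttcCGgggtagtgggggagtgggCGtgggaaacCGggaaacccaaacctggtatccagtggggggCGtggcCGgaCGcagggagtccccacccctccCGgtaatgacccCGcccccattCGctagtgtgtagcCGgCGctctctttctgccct
Gsc: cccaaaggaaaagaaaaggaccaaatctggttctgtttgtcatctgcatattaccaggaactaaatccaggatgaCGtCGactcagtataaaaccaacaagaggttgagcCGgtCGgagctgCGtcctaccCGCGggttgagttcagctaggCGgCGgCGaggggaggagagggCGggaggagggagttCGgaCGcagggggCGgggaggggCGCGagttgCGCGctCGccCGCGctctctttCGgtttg
T: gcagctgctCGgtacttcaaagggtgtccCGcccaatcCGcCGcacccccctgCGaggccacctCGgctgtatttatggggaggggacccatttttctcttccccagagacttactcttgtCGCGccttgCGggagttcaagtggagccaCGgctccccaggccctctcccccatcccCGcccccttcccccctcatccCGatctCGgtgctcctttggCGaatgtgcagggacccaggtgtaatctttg

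These windows lie on the plus strand at chr6:52313248-52313497 (Evx1) and chr17:8434173-8434422 (T), and on the minus strand at chr5:75978456-75978705 (Kdr) and chr12:104473237-104473486 (Gsc). Evx1 held 10 CpGs, T 14, Kdr 16 and Gsc 22, against a median of 6 over 32841 RefSeq promoters of the same length. The observed over expected CpG ratio was 0.68 for Evx1, 0.59 for T, 0.68 for Kdr and 1.06 for Gsc, against a median of 0.37. The window of Mesp1 (minus strand, chr7:79793591-79793840) held 2 CpGs at a ratio of 0.11. On both strands, 2 motifs were searched. The TCF/LEF core CTTTGA, which 13.8% of all promoters held, occurred 1 time before T, 234 bases from the start, and 2 times before Mesp1, at 72 and 31 bases. The T-box core AGGTGT, which 11.8% of promoters held, occurred 1 time each before T (14 bases), Evx1 (38 bases) and Mesp1 (233 bases). Neither set of letters was found in the Gsc or Kdr window. Methylation was not measured on these arrays, and a match is a description of the sequence only.

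In Dicer-null against wild-type cells, the streak genes moved in both directions. T and Fgf8 were lower in Dicer-null cells, Evx1, Kdr and Gsc were higher, and neither Mesp1 probe was called. Of the 8 tested member probes, 5 were called, 3 higher and 2 lower, while 39.8% of all tested probes were called, 20.0% higher and 19.8% lower. The median log2 ratio of the 8 was -0.15, against 0.01 over all tested probes. The 8 include Fgf8 probe 2, which passed the filter through wild type alone. The share called among members is read against that background, which is wide in this comparison.

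**Figure D1:**
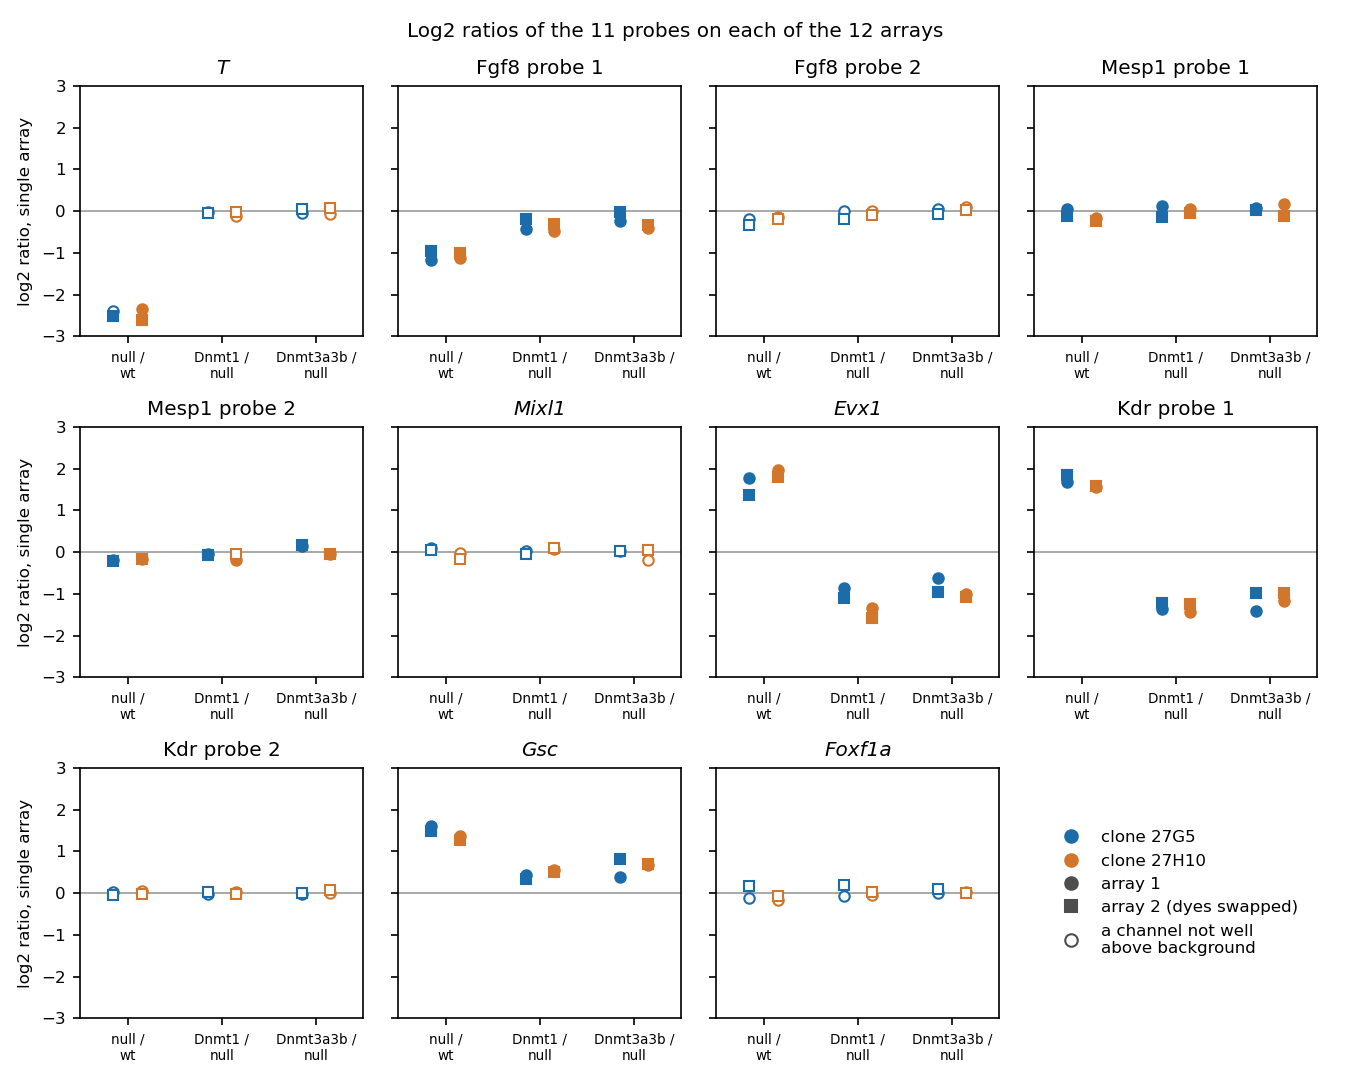
Log2 ratio (vertical axis) of each of the 11 probes on every array, by comparison (horizontal axis) and clone (colour); squares are the arrays with dyes exchanged, and open symbols mark an array on which a channel was not well above background. T lies between -2.60 and -2.33 on the 4 arrays with wild-type RNA and has only open symbols elsewhere, while Evx1 and Kdr probe 1 lie above 0 in the first comparison and below 0 in the other two.

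T had the lowest ratio of the 8 tested member probes (probe at chr17_random:1303091-1303150, mm7, plus strand). On the 4 arrays with wild-type RNA its log2 ratio was -2.40 and -2.52 in clone 27G5 and -2.33 and -2.60 in 27H10. The wild-type signal was 303.2 and 287 units in green, over a local background near 48, and 965.2 and 1037 in red. The Dicer-null signal was 80.2 and 82.5 in green and 124.2 and 117.1 in red, over a local red background of 68.3 and 71. Wild type was thus above Dicer-null on every one of these arrays, with no overlap within a dye. The wild-type channel was well above background on 4 of 4 arrays and the Dicer-null channel on 3 of 4. The mean was -2.46 ± 0.01, a 5.52-fold lower signal (adjusted p = 7.38e-05, limma). The value depends on the background correction: the scanner software's own log ratio gave -4.18 and the authors' deposited table -4.06, and a smaller offset of 16 gave -3.07, all called.

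Fgf8 was the other lower member. Its probe 1 (chr19:45633777-45633836, mm7, minus strand) gave -1.17 and -0.96 in clone 27G5 and -1.12 and -1.0 in 27H10. All 4 arrays were below 0, and both channels were well above background on all of them. The mean was -1.06 ± 0.01, 2.09-fold lower (adjusted p = 0.000569, limma). Fgf8 probe 2 (chr19:45638514-45638573) was much dimmer: wild type was well above background on 3 of 4 arrays and Dicer-null on 0 of 4. Its measured ratio was -0.21 ± 0.07, or 1.16-fold higher in wild type. Raising Dicer-null to the lowest signal well above background left that fold at 1.16, so it gave no separate bound. Since it passed the detection filter only through wild type, where it was high, these values are a description and no test is given.

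Evx1 (chr6:52281269-52281328, mm7, plus strand) was higher in Dicer-null cells on every array. It gave log2 ratios of 1.79 and 1.37 in clone 27G5 and 1.96 and 1.79 in 27H10. The mean was 1.73 ± 0.21, a 3.31-fold rise (adjusted p = 0.000607, limma).

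Kdr probe 1 (chr5:75351537-75351596, mm7, minus strand) gave 1.69 and 1.85 in clone 27G5 and 1.55 and 1.59 in 27H10. The 10 spots of this probe on each array agreed closely, with an SD of the spot log2 ratios of 0.03 to 0.07. The mean was 1.67 ± 0.14, 3.18-fold higher in Dicer-null cells (adjusted p = 0.000178, limma). Kdr probe 2 (chr5:75382167-75382226, mm7) also had 10 spots and was not well above background in either channel of any array, so it gave no second reading of the gene. The exon or intron at the probe positions was not assigned, since no annotation of that build was used here.

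Gsc (chr12:101965538-101965597, mm7, minus strand) gave 1.60 and 1.5 in clone 27G5 and 1.38 and 1.28 in 27H10. Every array was above 0, and the mean was 1.44 ± 0.15, 2.71-fold higher (adjusted p = 0.000281, limma).

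Mesp1 was measured above background on all 4 arrays by both of its probes and was not called. Probe 1 stood at -0.12 ± 0.11 (95% interval -0.31 to 0.07, adjusted p = 0.27, limma) and probe 2 at -0.18 ± 0.03 (95% interval -0.38 to 0.02, adjusted p = 0.13, limma). Probe 2 was called on the scanner log ratio (-0.52, adjusted p = 0.0435, limma) and in the authors' deposited values (-0.53, adjusted p = 0.0446, limma). Mixl1 was well above background in wild type on 1 of 4 arrays and in Dicer-null cells on 0 of 4, and Foxf1a on 0 of 4 in both. No fold is given for these 2 genes.

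These are bulk RNAs, so fewer cells with a transcript and less transcript per cell cannot be told apart. Both ratios of this comparison used wild-type cells of 1 label, so p does not measure a spread between wild-type cultures, and the labels give no separate cultures per clone, so p reflects only how far these samples lay apart.

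Around the members, the ligands that induce the streak and their inhibitors also split. Of 11 tested genes of that list (Cer1 was on the array but not tested), 6 were higher and 4 lower in Dicer-null cells, with a median log2 ratio of 0.65. Over 20048 genes by their brightest probe, 20.5% were higher and 20.2% lower, with a median of 0.01. Lefty1, a Nodal inhibitor, stood at 1.97 ± 0.08 (adjusted p = 0.000398, limma) and Lefty2 at 1.80 ± 0.07 (adjusted p = 0.0015, limma). Nodal itself rose (0.65 ± 0.13, adjusted p = 0.00613, limma), as did Wnt3a (1.67 ± 0.001, adjusted p = 0.000202, limma). The inhibitor Dkk1 was lower (-1.31 ± 0.15, adjusted p = 0.0132, limma). Wnt3, the streak-inducing Wnt ligand, had the lowest value (-2.06 ± 0.02, adjusted p = 0.000212, limma; its other probe gave -3.03), followed by Bmp4 (-1.55 ± 0.59, adjusted p = 0.00944, limma).

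Of 9 Wnt response genes, 5 were lower and 2 higher, with a median of -0.67. The lowest were Axin2, a feedback inhibitor induced by Wnt signalling (-1.73 ± 0.21, adjusted p = 0.00284, limma), and Rnf43, a ubiquitin ligase that removes Wnt receptors (-1.46 ± 0.06, adjusted p = 0.000217, limma). Notum, a secreted Wnt inhibitor (0.88 ± 0.11, adjusted p = 0.00383, limma), and Znrf3 (0.66 ± 0.38, adjusted p = 0.0153, limma) were higher.

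Of 19 tested streak and mesoderm transcription factors, 6 were lower, 3 higher and 10 not called, with a median of -0.23. Sp5, a Wnt target factor, fell (-2.55 ± 0.03, adjusted p = 0.002, limma), as did Cdx2 (-2.10 ± 0.43, adjusted p = 0.000746, limma). Otx2, an epiblast factor, rose (0.61 ± 0.19, adjusted p = 0.0258, limma), as did Twist1 (0.54 ± 0.19, adjusted p = 0.00554, limma). Eomes, the T-box partner of early streak induction, stood at -0.23 ± 0.17 (adjusted p = 0.238, limma). In this list Eomes, Cdx2 and Hand1 are also trophoblast markers.

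Of 15 FGF ligands, receptors and response genes, 14 were tested. Of these, 8 were lower and 6 were not called, with a median of -0.72. Fgf5, an epiblast ligand, stood lowest (-2.39 ± 0.36, adjusted p = 0.00109, limma), followed by Spry4, an inhibitor induced by FGF signalling (-1.93 ± 0.35, adjusted p = 0.00208, limma; its probes ranged from -1.93 to -0.42). Of 14 endothelial and blood progenitor markers, 3 were higher and 3 lower, with a median of 0.00. Kdr's sister receptor Flt1 went opposite to Kdr (-3.27 ± 0.15, adjusted p = 7.96e-05, limma), and Pecam1, which ES cells also carry, rose (1.87 ± 0.28, adjusted p = 0.000359, limma).

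**Figure D2:**
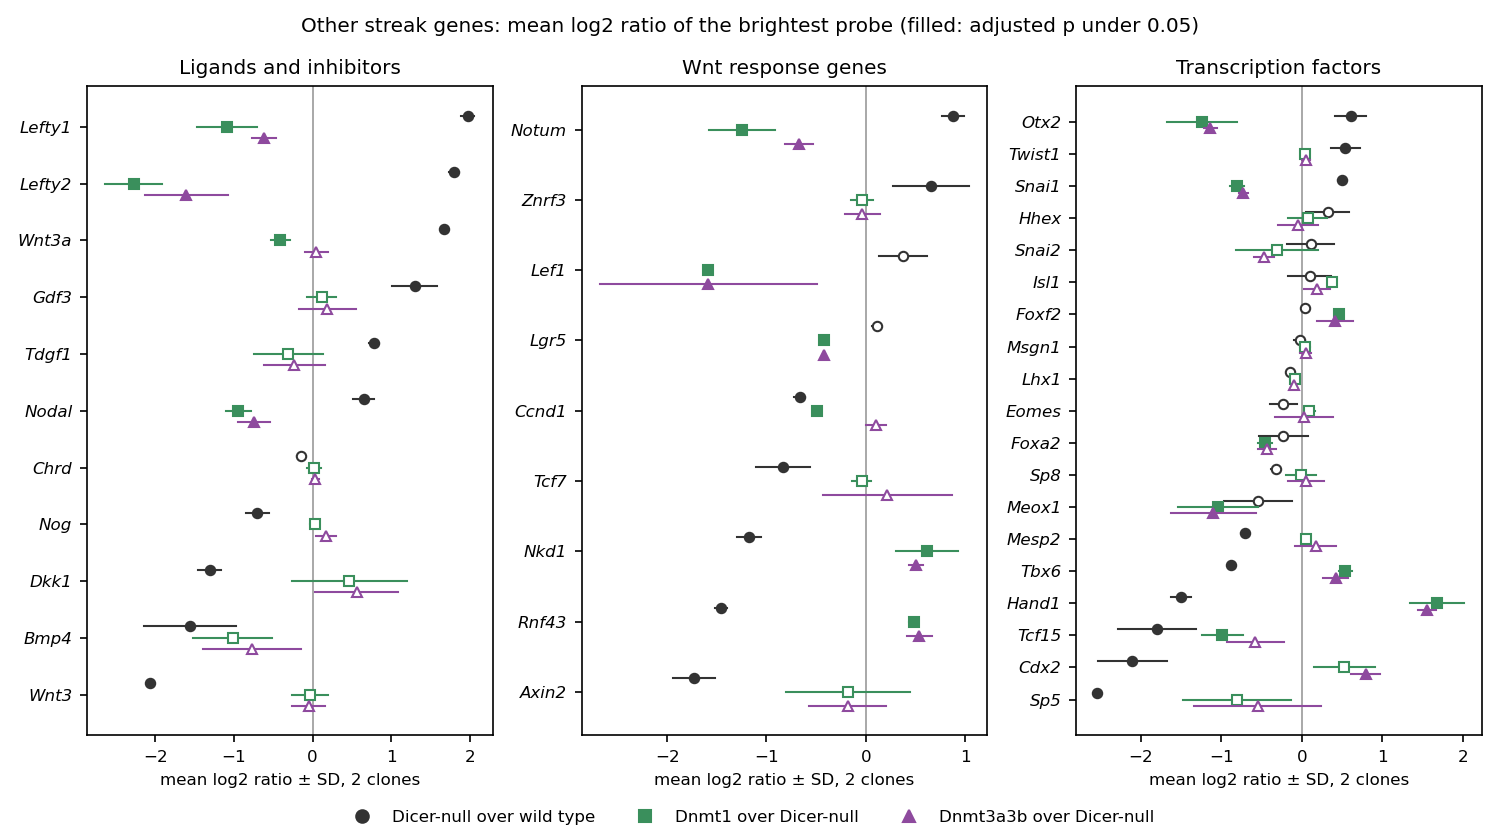
Mean log2 ratio ± SD over the 2 clones (horizontal axis) for the other tested streak genes, in 3 lists, by their brightest probe; filled symbols were called. Lefty1 and Lefty2 lie right of 0 against wild type and left of 0 in both Dnmt lines, while Wnt3 lies at -2.06 against wild type and near 0 in the Dnmt lines.

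Markers of other cell types differed between the same RNAs. Of 13 tested fibroblast markers, 9 were lower and 1 higher in Dicer-null cells, and their summed normalised signal was 68713 to 81307 units over the 4 wild-type channels against 16197 to 23135 over 12 Dicer-null channels. Col1a1 stood at -4.09 ± 0.13 (adjusted p = 7.38e-05, limma), although its probes ranged from -4.09 to 0.01, and Dcn rose (2.02 ± 0.28, adjusted p = 0.000233, limma). Lum was at background in wild type, and Col6a1 and Postn in all RNAs but wild type. Col6a1 and Postn thus passed the filter only through wild type, and their place among the 9 lower genes is a description. Of 11 trophoblast markers, 7 were lower and 1 higher, with sums of 92705 to 213026 in wild type and 32360 to 65244 in Dicer-null cells, and each was above background on some array. Of 11 primitive endoderm markers, 5 were lower and 1 higher, with sums of 5799 to 6624 and 3058 to 4108, and Afp was at background in wild type. Of 9 ES cell markers, 7 were higher and 2 were not called (Nanog 1.45 ± 0.26, adjusted p = 0.00145, limma), with sums of 169191 to 176241 and 202229 to 331062. The endothelial and blood list had overlapping sums, 8413 to 9196 and 7789 to 9837, with Cdh5 at background in wild type. The part of these cell types in the values of T, Fgf8, Evx1, Kdr and Gsc was not tested.

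**Figure D3:**
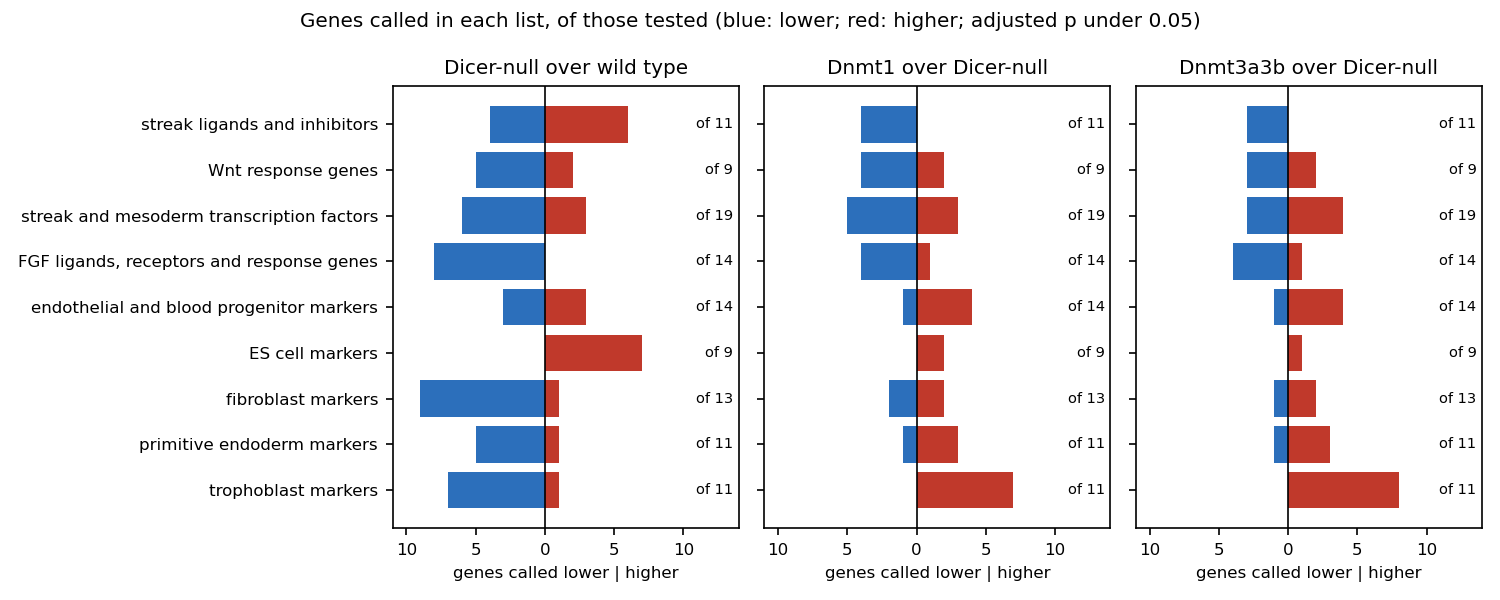
Number of genes called lower (blue, to the left) or higher (red, to the right) in each list and comparison, with the number tested at the right edge. The fibroblast list has 9 genes to the left in the first comparison, and the trophoblast list has 7 and 8 genes to the right in the Dnmt lines. The 9 include Col6a1 and Postn, which passed the filter only through wild type.

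In the Dnmt1 line against its Dicer-null parent, Evx1, Kdr and Fgf8 were lower and Gsc was higher, while T was at background. Of the 8 tested member probes 4 were called, 3 lower and 1 higher. Over all tested probes 22.8% were called, 11.6% higher and 11.2% lower. The median of the 8 was -0.08, against 0.00 over all tested probes. This comparison and the first share the Dicer-null RNAs, which are the first-named cells there and the reference here, so opposite signs are not independent of each other.

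Kdr probe 1 had log2 ratios of -1.37 and -1.21 in clone 27G5 and -1.43 and -1.24 in 27H10. The arrays lay close together, and the mean was -1.31 ± 0.03, 2.48-fold lower than in the parent (adjusted p = 0.0017, limma). Evx1 gave -0.87 and -1.10 in clone 27G5 and -1.33 and -1.59 in 27H10. The mean of Evx1 was -1.22 ± 0.34, 2.34-fold lower (adjusted p = 0.00555, limma), and clone 27H10 was lower than clone 27G5 on both arrays.

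Gsc rose, with 0.44 and 0.33 in clone 27G5 and 0.55 and 0.51 in 27H10. All 4 arrays were above 0, with a mean of 0.46 ± 0.10, 1.38-fold (adjusted p = 0.0198, limma). Fgf8 probe 1 gave -0.42 and -0.19 in clone 27G5 and -0.48 and -0.32 in 27H10, a mean of -0.35 ± 0.07 (adjusted p = 0.0368, limma). Both small changes lost their call when the Dicer-null RNA shared between ratios was modelled (adjusted p = 0.122 for Gsc and 0.187 for Fgf8, limma) and in the fit with a trended, robust prior (adjusted p = 0.0628 and 0.0742, limma). Without clone 27H10 they were also not called (adjusted p = 0.096 and 0.155, limma), and Fgf8 was not called without clone 27G5 (adjusted p = 0.063) or with median centring (adjusted p = 0.0596, limma). On the scanner log ratio Fgf8 stood at -0.63 (adjusted p = 0.0202, limma).

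T was not well above background in either channel of any of the 8 arrays of the Dnmt lines. Its green signal there was 65.4 to 76.8 units over a local background of 51.3 to 58.4, and its red signal 87.8 to 108.5 over 67.9 to 70.8, so no fold is given. Mixl1, Foxf1a, Fgf8 probe 2 and Kdr probe 2 were likewise not well above background on any of these 8 arrays. Mesp1 probe 1 stood at 0.00 ± 0.01 (95% interval -0.18 to 0.19) and probe 2 at -0.08 ± 0.04 (95% interval -0.29 to 0.12), neither called.

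In the Dnmt3a3b line against its Dicer-null parent, Kdr and Evx1 were lower and Gsc was higher. Of the 8 tested member probes, 3 were called, 2 lower and 1 higher, and over all tested probes 22.0% were called, 10.8% higher and 11.2% lower. The median of the 8 was 0.02, against 0.01 over all tested probes.

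Kdr probe 1 gave -1.40 and -0.97 in clone 27G5 and -1.17 and -0.98 in 27H10, with a mean of -1.13 ± 0.08, 2.19-fold lower (adjusted p = 0.00245, limma). Evx1 gave -0.63 and -0.97 in clone 27G5 and -0.99 and -1.08 in 27H10. Its mean was -0.92 ± 0.17, 1.89-fold lower (adjusted p = 0.0114, limma). Gsc gave 0.39 and 0.81 in clone 27G5 and 0.68 and 0.69 in 27H10, a mean of 0.64 ± 0.06, 1.56-fold higher (adjusted p = 0.00847, limma). Every array of these 3 probes had the sign of its mean.

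Fgf8 probe 1 was below 0 on all 4 arrays (-0.23, -0.02, -0.40 and -0.32) but was not called, with a mean of -0.24 ± 0.16 (adjusted p = 0.0979, limma). It was called in the fit of single arrays with the array number as a replicate block (adjusted p = 0.0287, limma). Mesp1 probe 1 stood at 0.04 ± 0.02 (95% interval -0.15 to 0.23) and probe 2 at 0.06 ± 0.14 (95% interval -0.15 to 0.26), neither called.

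The calls in the Dnmt3a3b line rest on both clones. Without clone 27G5, 0 of the 8 member probes were called by limma (adjusted p = 0.0588 for Kdr, 0.0918 for Evx1 and 0.0908 for Gsc), and 23 of all tested probes. Without clone 27H10 only Kdr was called, with adjusted p of 0.121 for Evx1 and 0.0986 for Gsc. With the shared RNA modelled, Gsc was not called (adjusted p = 0.0693, limma).

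The difference between the Dnmt3a3b and the Dnmt1 line was tested through their ratios to the Dicer-null parent, since no array held both lines. The main fit treated these ratios as independent, although they share that parent. limma called 0 of 28818 probes, 0% of those tested, with 282 at an unadjusted p under 0.05, and each of the 15 alternatives that were run also called 0. None of the 8 members was among the 282. Evx1 differed by 0.31 ± 0.17 (95% interval -0.19 to 0.81), Kdr probe 1 by 0.18 ± 0.11 (95% interval -0.11 to 0.48), Gsc by 0.18 ± 0.04 (95% interval -0.13 to 0.49) and Fgf8 probe 1 by 0.11 ± 0.10 (95% interval -0.19 to 0.41). A p that misses the threshold does not show that the lines act alike.

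The channel levels give the order of the RNAs for each probe. On the normalised log2 scale, Kdr probe 1 stood at 8.00 (range 7.94 to 8.07 over 4 arrays) in wild type. In clone 27G5 it stood at 9.77 in Dicer-null cells, 8.51 in the Dnmt1 line and 8.59 in the Dnmt3a3b line, and in clone 27H10 at 9.64, 8.32 and 8.62. In each clone the Dnmt lines thus lay between wild type and the parent, and their ranges overlapped in clone 27G5 (8.46 to 8.55 and 8.41 to 8.76). Evx1 stood at 7.70 in wild type, at 9.1, 8.05 and 8.29 in clone 27G5 and at 9.60, 8.07 and 8.57 in clone 27H10, in the order Dicer-null, Dnmt1 and Dnmt3a3b line.

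Gsc had another order. It stood at 7.65 in wild type, at 9.31, 9.73 and 9.91 in clone 27G5 and at 9.09, 9.74 and 9.85 in clone 27H10, and the ranges of the Dnmt1 and Dnmt3a3b lines overlapped in both clones. Fgf8 probe 1 stood at 8.86 in wild type, at 7.69, 7.38 and 7.50 in clone 27G5 and at 7.72, 7.26 and 7.32 in clone 27H10. T stood at 9.02 in wild type and between 6.20 and 6.44 in the other 6 RNAs. These were above background on 3 of their 20 channels. All 3 held Dicer-null RNA beside wild-type RNA, and no Dicer-null channel beside a Dnmt line was above background. Adding the ratios within a clone placed the Dnmt1 line at 0.35 ± 0.17 for Kdr, 0.50 ± 0.12 for Evx1 and 1.90 ± 0.05 for Gsc relative to wild type. The Dnmt3a3b line stood at 0.54 ± 0.06, 0.81 ± 0.04 and 2.08 ± 0.09. No array held these pairs of RNAs, so these sums have no test.

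**Figure D4:**
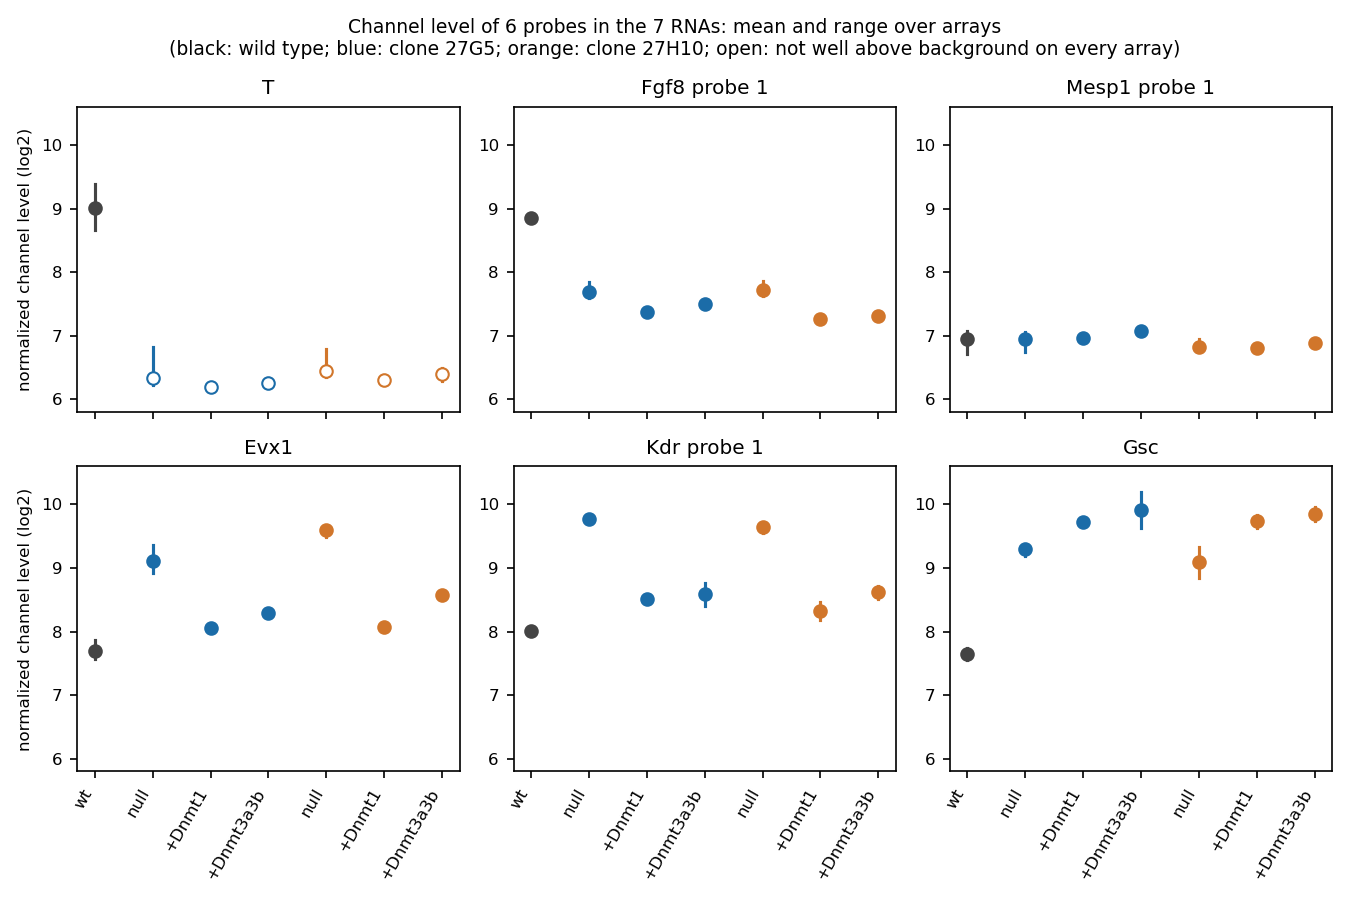
Normalised channel level on the log2 scale (vertical axis) of 6 probes in each of the 7 RNAs, as the mean (point) and range (bar) over arrays; open points were not well above background on every array. Kdr probe 1 and Evx1 are highest in Dicer-null cells of both clones, Gsc is higher in all 6 other RNAs than in wild type, and T is measured well only in wild type, at 9.02.

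Among the other streak genes, the ligands and inhibitors were called only on the lower side in the Dnmt lines. In the Dnmt1 line 4 of 11 were lower and 7 not called (median -0.31), and in the Dnmt3a3b line 3 were lower and 8 not called (median -0.05). Over 20048 genes, 12.3% were higher and 11.2% lower in the Dnmt1 line (median 0.01) and 10.9% and 11.2% in the Dnmt3a3b line (median 0.01). Lefty2 had the lowest value in both, -2.28 ± 0.36 in the Dnmt1 line (adjusted p = 0.00307, limma) and -1.60 ± 0.53 in the Dnmt3a3b line (adjusted p = 0.00662, limma). Nodal fell in both (-0.94 ± 0.16, adjusted p = 0.00537, and -0.74 ± 0.20, adjusted p = 0.00963, limma). Lefty1 did so too (-1.09 ± 0.38, adjusted p = 0.00685, and -0.62 ± 0.16, adjusted p = 0.0313, limma). Wnt3 stood at -0.03 ± 0.23 in the Dnmt1 line and -0.05 ± 0.21 in the Dnmt3a3b line, neither called.

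Of 9 Wnt response genes, 4 were lower and 2 higher in the Dnmt1 line (median -0.18) and 3 and 2 in the Dnmt3a3b line (median -0.03). Lef1, a Wnt-responsive transcription factor, was lowest, at -1.59 ± 0.04 (adjusted p = 0.0246, limma) and -1.58 ± 1.09 (adjusted p = 0.0251, limma). Notum was lower (-1.25 ± 0.33, adjusted p = 0.00435, and -0.67 ± 0.14, adjusted p = 0.0196, limma). Rnf43 (0.48 ± 0.05, adjusted p = 0.0136, and 0.54 ± 0.13, adjusted p = 0.0104, limma) and the Wnt inhibitor Nkd1 (0.62 ± 0.31, adjusted p = 0.0199, and 0.51 ± 0.07, adjusted p = 0.0338, limma) were higher.

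Of 19 streak and mesoderm transcription factors, 5 were lower and 3 higher in the Dnmt1 line (median 0.04) and 3 and 4 in the Dnmt3a3b line (median 0.03). Otx2 fell in both (-1.24 ± 0.43, adjusted p = 0.00649, and -1.13 ± 0.08, adjusted p = 0.00834, limma), as did the somite factor Meox1 (-1.05 ± 0.50, adjusted p = 0.0359, and -1.10 ± 0.53, adjusted p = 0.0321, limma). Hand1 rose (1.68 ± 0.33, adjusted p = 0.00251, and 1.55 ± 0.11, adjusted p = 0.00293, limma). Tbx6, a T-box factor of presomitic mesoderm, rose in both (0.54 ± 0.08, adjusted p = 0.0117, and 0.42 ± 0.16, adjusted p = 0.0231, limma). Cdx2 rose in the Dnmt3a3b line (0.80 ± 0.18, adjusted p = 0.0335, limma). It was not called in the Dnmt1 line (0.53 ± 0.38, adjusted p = 0.0966, limma).

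Of 14 FGF genes, 4 were lower and 1 higher in each line (medians -0.30 and -0.14). Fgf5 fell in both (-1.64 ± 0.65, adjusted p = 0.00948, and -1.42 ± 0.27, adjusted p = 0.0138, limma), and the receptor Fgfr2 rose (1.31 ± 0.12, adjusted p = 0.00165, and 0.84 ± 0.08, adjusted p = 0.004, limma). Fgf15 was the lowest in the Dnmt1 line (-1.83 ± 0.31, adjusted p = 0.011, limma) and Fgf18 in the Dnmt3a3b line (-1.55 ± 0.43, adjusted p = 0.0123, limma).

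Of 14 endothelial and blood progenitor markers, the list nearest to Kdr, 4 were higher and 1 lower in each line (medians 0.10 and 0.22). Flt1 (0.68 ± 0.21, adjusted p = 0.0107, and 0.93 ± 0.06, adjusted p = 0.00518, limma), Cdh5, the endothelial cadherin (1.79 ± 0.45, adjusted p = 0.00336, and 1.63 ± 0.21, adjusted p = 0.00422, limma), and Gata2 (1.95 ± 0.74, adjusted p = 0.00782, and 1.90 ± 0.43, adjusted p = 0.00867, limma) rose where Kdr fell. The probes of Cdh5 ranged from 0.68 to 1.79 in the Dnmt1 line and from 0.77 to 1.63 in the Dnmt3a3b line. Those of Flt1 ranged from 0.26 to 0.68 and from 0.35 to 0.93. Gata1 was lower, as Kdr was (-0.84 ± 0.09, adjusted p = 0.0045, and -0.64 ± 0.16, adjusted p = 0.00851, limma).

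Trophoblast markers stood apart in these lines. Of 11 tested, 7 were higher and 4 not called in the Dnmt1 line (median 1.68), and 8 were higher and 3 not called in the Dnmt3a3b line (median 1.55). Their sums were 109359 to 275911 and 107084 to 218321 units, against 32360 to 65244 in Dicer-null cells. Krt7 rose by 2.81 ± 0.30 (adjusted p = 0.00101, limma) and 2.72 ± 0.05 (adjusted p = 0.00126, limma), and Gata3 by 3.01 ± 0.73 in the Dnmt1 line (adjusted p = 0.00232, limma). Fibroblast markers split, with 2 higher and 2 lower of 13 in the Dnmt1 line and 2 and 1 in the Dnmt3a3b line, and sums of 17484 to 26630 and 20907 to 33081 with Col6a1, Lum and Postn at background. Primitive endoderm markers had 3 of 11 higher and 1 lower in each line, with sums of 4220 to 5707 and 4261 to 6000. The 1 lower gene was Hnf4a in each line. It was at background in the Dnmt1 line, where its probes ranged from -0.44 to -0.004. Of 9 ES cell markers, 2 were higher in the Dnmt1 line and 1 in the Dnmt3a3b line, with sums of 212477 to 321917 and 210074 to 311159. The endothelial sums were 9093 to 12020, with Tie1 at background, and 9037 to 15942. The part of these cell types in the member values was not tested.

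The genes whose 6 ratios lay nearest to each called member were found by the root mean square difference over the 6 ratios. These ratios share RNAs, and the ranking is a description. T was at background in 4 of its 6 ratios, and nearest to it were Moxd1 (difference 0.08 on the log2 scale), Col1a2 (0.10), Pim2 (0.14), Calcr (0.19) and Mfap2 (0.20). Col1a2 is a fibroblast collagen on the marker list above. For Kdr probe 1 they were Khdc3 (0.15), an oocyte and early embryo gene, then Pof1b (0.20), Nf2 (0.24), Wdr64 (0.25) and Evx1 itself (0.26). For Evx1 they were Dst (0.13), Wdr64 (0.14), Rnf125 (0.20), Nf2 (0.20) and Slc5a1 (0.22), so that Nf2 and Wdr64 stood near both. Gsc lay nearest to Prss50 (0.12), Saa1 (0.14), Trim16 (0.14), Gstp1 (0.15) and Mok (0.15), and among the nearest to Fgf8 probe 1 were Mrpl18 (0.07), E2f8 (0.07), Sox4 (0.09) and Inava (0.11).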

How the data were processed

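Spot intensity (mean signal, median background) came from Agilent Feature Extraction, per the file headers version 9.5.1.1 on the 8 arrays of the Dnmt lines and version 9.1.3.1 on the 4 others. A log10 ratio was deposited in the same files, and the authors' deposited series value table was on the log2 scale with its sign already turned. Both served as alternatives. Intensities were corrected with normexp (offset 50) and loess within arrays using limma 3.58.1 and statmod 1.5.0 (R 4.3.3). Replicate spots were averaged, dye swaps turned and averaged, and the 6 ratios fitted with 1 coefficient per comparison (3 residual degrees of freedom) and eBayes. The offset draws ratios of dim probes towards 0. Of the 41174 probes, 22951 were named through RefSeq (GRCm38.p6). Positions are on mm7, per the file headers. The fit was tested on simulated data.

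The members, gene lists and tests were chosen with earlier results of these data known. The text names every member probe, up to 4 called genes of each list per comparison (the 2 highest and 2 lowest, by brightest probe), the 5 nearest genes of each called member, of which 1 is not reported here, and the label checks. Nodal, Wnt3a and Dkk1 against wild type and Wnt3 and Eomes where not called fall outside that rule. They were named for their role after their values were seen. Tbx6 in the Dnmt3a3b line and Cdx2 in the Dnmt1 line also fall outside it, and are given beside the other line. A listed gene with several probes can differ between them.

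Array numbers 1 and 2 in the labels mark the dye orientation. Across 15 pairs of groups, array 1 minus array 2 correlated at r = 0.69 to 0.94 over probes, so a fit of single arrays with the array number as a replicate block was an alternative, as was the clone as a replicate block. Precision is limited by the number of clones (n = 2) and by the 1 label of wild-type cells.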

Additional observations from a re-analysis of the deposited data

Results flagged for a closer look

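Mesp1 probe 2 in the Dnmt3a3b line differed between the clones. Both arrays of clone 27G5 were above 0 (0.14 and 0.17 on the log2 scale) and both of clone 27H10 below 0 (-0.05 and -0.04), so clone 27H10 minus clone 27G5 came to -0.20. The difference was not tested. Mesp1 probe 1 was above 0 in both clones (0.06 and 0.03).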

How the results depend on the processing

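Of 462 values of tested member probes under the 15 alternatives, 439 kept direction and side of the threshold where either was called, 14 lost the call, 9 gained it and 0 reversed. Of the 9, 6 were of Fgf8 probe 2, which passed the detection filter only through wild type. T, Fgf8 probe 1, Evx1, Kdr probe 1 and Gsc kept their calls against wild type under every alternative that gave a value, and Kdr probe 1 and Evx1 in the Dnmt1 line. The stricter filter gave no value for T and Fgf8 probe 2, nor for Mesp1 probe 2 in the Dnmt1 line and in the difference between the Dnmt lines. Testing 1 probe a gene gave none for Fgf8 probe 2 and Mesp1 probe 2. Modelling the shared RNAs lowered the calls over all probes to 2584, 707 and 586 in the order Dicer-null over wild type, Dnmt1 and Dnmt3a3b over Dicer-null, and the member calls in the Dnmt1 line to 2, as did the trended, robust prior (2). Leaving out 1 clone gave 4240 (without 27H10) to 4708 (without 27G5), 3398 (without 27H10) to 7154 (without 27G5) and 23 (without 27G5) to 352 (without 27H10) calls over all probes, and member calls of 5, of 2 to 3 and of 0 to 1; with 1 ratio left, that ratio is assumed to vary like the others. With the clone as a replicate block the member calls were 5, 4 and 3, and no member call changed. With the array number as a replicate block they were 6, 4 and 4. The 6 include Fgf8 probe 2, whose call is not read as a result, since the filter kept it through wild type alone. Clone deviations correlated at r = -0.13 to 0.35 between comparisons. Ratios of dim probes are limited by signal over background.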
